A study of Mus musculus with 12 samples.

Results

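STAT5 regions around 2 genes of mesenchymal cells, Prrx1 and Rnd3, were described in region lists from mouse embryonic fibroblasts. The members are all regions whose centre lay in the Prrx1 window, chr1:165000001-166000000, or in the Rnd3 window, chr2:50000001-51200000, on build mm9. They number 503 of the 156642 regions in the 3 lists, with 205 around Prrx1 and 298 around Rnd3. The windows were chosen by their high number of regions in these same lists, so their density is a description and is not tested. Prrx1 encodes a paired-type homeodomain transcription factor of limb, craniofacial and other mesenchyme. Rnd3 encodes a GTP-binding protein that acts on the actin cytoskeleton. STAT5A and STAT5B are phosphorylated by JAK kinases after growth hormone or cytokine signalling, pair up, enter the nucleus and bind DNA. RNA was not measured here, so the lists say where STAT5 was called and not how active either gene was.

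The assay was chromatin immunoprecipitation with sequencing, with an antibody to STAT5, in fibroblasts grown from C57BL/6 fetuses of day 12.5 to 13.5 and used at passage 9 to 10. The first group was STAT5A-Stat5-/- cells, which lack Stat5 and overexpress STAT5A, with 2 libraries (replicate 1, and a repeat called replicate 2). The second was wild-type cells, with 1 library. Both groups spent 5 h in serum-free medium before growth hormone (GH) was added at 1 µg/ml for 45 min, so they share the starvation and the hormone. The sources used here do not give how STAT5A was delivered, whether the cells were 1 clone or whether the repeat was a separate culture. The difference between replicates may thus be technical. Of the 12 libraries of the series, the other 9, including unstimulated, Stat5-null and IgG ones, were not analysed here, so no background in cells without STAT5 stands beside these values.

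No region carries a height, score or p-value, and the depth of each library is unknown. The whole lists have 71561 (replicate 1), 71803 (replicate 2) and 13278 regions (wild type). The labels tie the lists of replicate 1 and of wild type each to a STAT5 library and its IgG library. They tie the list of replicate 2 to a pair of STAT5 libraries, 1 without and 1 with GH, and to no IgG library. It is taken here as the GH-treated repeat because the list is named for GH, and the labels alone do not settle this. They also do not say whether the library without GH served as its control. The regions of replicate 2 may thus have been called against a control unlike that of the other lists. The lists also differ in form: all regions of replicate 1 and 87.1% of those of wild type have edges on a 10 bp grid, against 1.95% in replicate 2. With 1 wild-type library and lists that may have been called in different ways, no p-value is given for any difference. Intervals are exact binomial ones at 95% and cover counting error only, and neighbouring regions are not independent of each other.

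The promoter sequences of both genes are shown because the factor mapped binds DNA at a known recognition sequence, TTCNNNGAA, where N is any base. The sequences are RefSeq's on build GRCm38.p6, 5′ to 3′ on the minus strand, and each is the 250 bases before the annotated start. The position of that start on mm9 is not used here, so whether a region of the lists covers it was not analysed here. The Prrx1 sequence is chr1:163313651-163313900 and the Rnd3 sequence is chr2:51149112-51149361.
Prrx1: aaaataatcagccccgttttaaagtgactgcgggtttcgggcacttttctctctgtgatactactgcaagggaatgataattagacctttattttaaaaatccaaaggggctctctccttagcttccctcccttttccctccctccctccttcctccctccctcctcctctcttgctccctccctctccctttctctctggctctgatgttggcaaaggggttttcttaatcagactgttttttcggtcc
Rnd3: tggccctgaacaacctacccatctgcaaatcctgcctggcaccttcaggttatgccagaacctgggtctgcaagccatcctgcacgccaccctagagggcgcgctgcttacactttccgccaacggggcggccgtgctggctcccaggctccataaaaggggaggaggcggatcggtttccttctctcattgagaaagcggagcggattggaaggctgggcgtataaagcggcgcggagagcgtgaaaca
Neither promoter, searched over 300 bases that run 50 past the start, holds the recognition sequence, so no letter stands in capitals. The sequence reads the same on both strands. Of 32851 mouse promoters of this length, 8.30% hold it. No match says only that these letters are not in this stretch. The gene table, used for names and order only, places Prrx1 on chromosome 1 and Rnd3 on chromosome 2, as the windows do. The 3 genes listed before Prrx1 are Gm22671, Gm22434 and Gm51850, and the 3 after it are LOC108167740, Gm20471 and Gorab. Those around Rnd3 are Gm39811, Gm13498 and Gm32360 before it and Gm13500, Gm13497 and 1700057H21Rik after it. None of these neighbours of Rnd3 is protein-coding. The nearest protein-coding genes in the table, named after that order was seen, are Mroh9 and Gorab for Prrx1, and Mmadhc and Tas2r134 for Rnd3. Between Rnd3 and these lie 10 and 7 other genes, against 3 and 2 for Prrx1.

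Both windows held many more regions in STAT5A-Stat5-/- cells than in wild-type cells, as did the lists as a whole. Around Prrx1, replicate 1 had 118 regions and replicate 2 had 75, averaging 96.5 ± 30.4 (SD, n = 2), against 12 in wild type. Around Rnd3 they had 161 and 115, averaging 138 ± 32.5 (SD, n = 2), against 22 in wild type. The numbers around Prrx1 were thus 9.83 and 6.25 times those of wild type, and around Rnd3 7.32 and 5.23 times, where the whole lists gave 5.39 and 5.41 times. In each window replicate 1 stood above replicate 2 and both stood far above the wild-type library. The regions of STAT5A-Stat5-/- cells covered 4.74% and 3.36% of the Prrx1 window and 5.95% and 4.65% of the Rnd3 window. Wild-type regions covered 0.465% and 0.704%.

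Among autosomal tiles of equal length, the windows ranked high in every list, as their choice implies. The median 1 Mb tile had 26.5 regions of replicate 1, 27 of replicate 2 and 5 of wild type. As many regions as in the Prrx1 window were found in 3 of 2462 tiles for replicate 1, 69 of 2462 for replicate 2 and 192 of 2458 for wild type. For Rnd3, with tiles of 1.2 Mb, the numbers were 0 of 2051, 4 of 2051 and 19 of 2048. The Rnd3 window therefore stood near the top in all 3 lists. The Prrx1 window ranked highest in replicate 1. It is itself among the tiles counted for it, while the tiles of 1.2 Mb do not line up with the Rnd3 window.

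At the window limits, the nearest Prrx1 regions outside the lower limit had centres 13.9 kb (replicate 1), 3.40 kb (replicate 2) and 6.18 kb (wild type) away, and the first inside 20.3, 44.2 and 55.9 kb away. At the upper limit the last inside lay 32.4, 30.9 and 140.6 kb away and the next outside 39.0, 27.9 and 145.0 kb away. For Rnd3 the lower limit had regions 13.7, 26.5 and 24.5 kb outside and 25.9, 46.7 and 105.9 kb inside. The upper limit of Rnd3 cuts through a dense stretch: replicates 1 and 2 had regions 1.85 and 1.91 kb inside and 8.63 and 5.48 kb outside it. In wild type the last region inside lay 22.3 kb and the next outside 155.0 kb from it.

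In bins of 50 kb, replicate counts around Prrx1 were highest in 2 separate bins, which began 200 and 300 kb from the window start. The bin between them held 7 regions of replicate 1, 4 of replicate 2 and 0 of wild type. Regions around Rnd3 were concentrated in 2 zones, with a sparser stretch between. No bin was empty in either replicate, in 20 bins for Prrx1 and 24 for Rnd3. Across the autosomes 52.5% of bins were empty in replicate 1 and 48.6% in replicate 2. In wild type 12 of 20 bins around Prrx1 and 11 of 24 around Rnd3 were empty, against 79.2% of all bins.

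**Figure D1:**
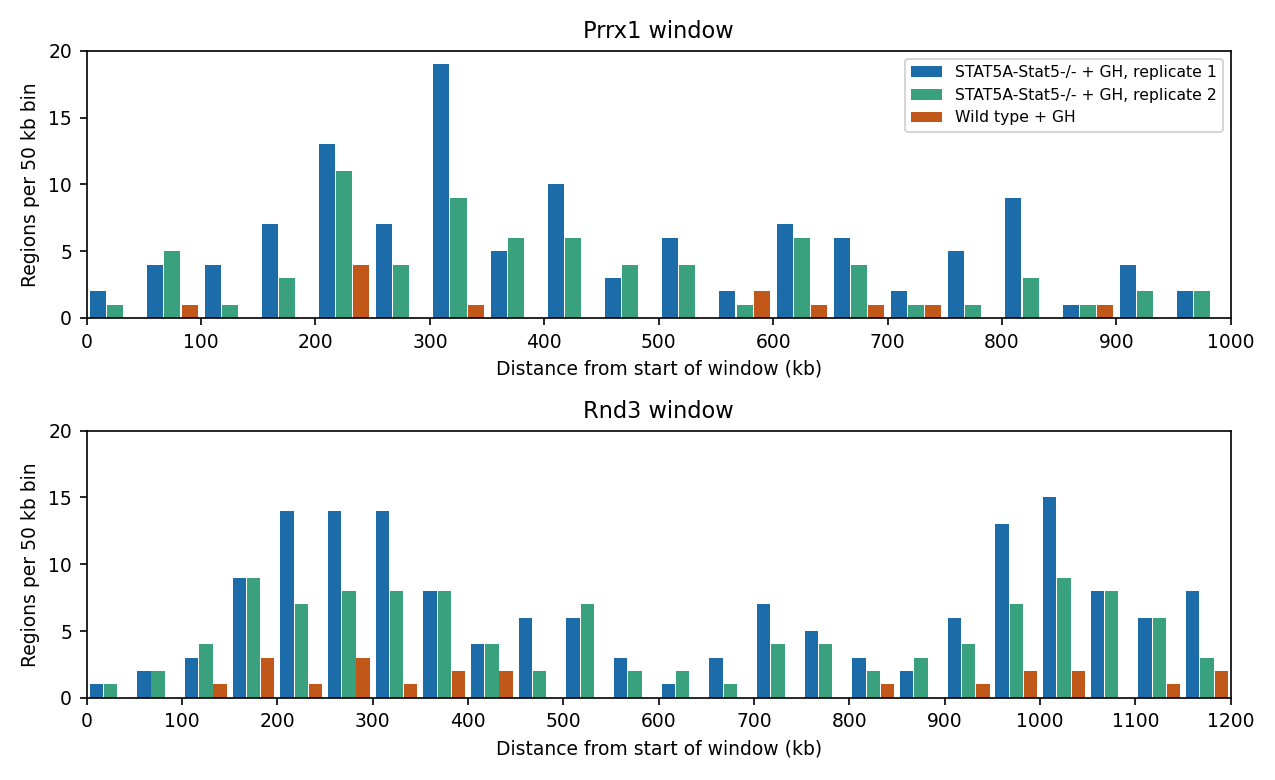
Number of STAT5 regions per 50 kb bin (y axis) against distance from the window start in kb (x axis), with a bar for each list in each bin. Around Prrx1 the highest bars are 19 for replicate 1, 11 for replicate 2 and 4 for wild type, and around Rnd3 they are 15, 9 and 3.

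The densest Prrx1 bin of replicate 1, chr1:165300001-165350000, held 19 regions, against 9 in replicate 2 and 1 in wild type. Only 7 of 49388 autosomal bins, this bin included, held as many in replicate 1. The densest bin of replicate 2 was an earlier one, chr1:165200001-165250000, where replicate 1 had 13 regions, replicate 2 had 11 and wild type had 4. It was also the densest of wild type, where 120 of 49357 bins held 4 or more, and 131 of 49399 bins held 11 or more in replicate 2. The replicates thus had their peaks 2 bins apart, and the wild-type peak fell on that of replicate 2.

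Around Rnd3 the first zone ran through 5 bins from 150 to 400 kb. They held 9, 14, 14, 14 and 8 regions in replicate 1, 9, 7, 8, 8 and 8 in replicate 2, and 3, 1, 3, 1 and 2 in wild type. The second zone, from 950 kb to the window end, held 13, 15, 8, 6 and 8 regions in replicate 1, 7, 9, 8, 6 and 3 in replicate 2, and 2, 2, 0, 1 and 2 in wild type. The zone limits were chosen after the bins were seen. Per bin, the first zone averaged 11.8 regions for replicate 1, 8 for replicate 2 and 2 for wild type, and the second zone 10, 6.6 and 1.4. The 11 bins between them averaged 4.18, 3.18 and 0.364. Single bins of the second zone were as low as 6, 3 and 0, and single bins between the zones as high as 7, 7 and 2. The densest bin of replicate 1, chr2:51000001-51050000, held 15, 9 and 2 regions, and replicate 2 reached its highest count of 9 there and in chr2:50150001-50200000. Wild type reached its highest count of 3 in that last bin and in chr2:50250001-50300000.

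Replicates had similar profiles over bins. Over the 20 bins around Prrx1 the counts of replicates 1 and 2 had a Pearson correlation of 0.81 (Spearman 0.75), and over the 24 around Rnd3 0.82 (Spearman 0.84). Replicate 1 was higher in 15 Prrx1 bins and replicate 2 in 3, with 2 equal, and the largest difference was the 10 regions between 19 and 9. Around Rnd3 replicate 1 was higher in 13 bins, replicate 2 in 4, and 7 were equal. Bins count regions as deposited, and many regions of replicate 1 lie 11 bp apart, which none of replicate 2 do here. After regions up to 20 bp apart were joined, replicates 1 and 2 had 84 and 75 regions around Prrx1. Around Rnd3 they then had 121 and 115. The bins were not recounted after joining. Wild-type counts correlated with those of replicates 1 and 2 at 0.61 and 0.61 (Pearson) around Rnd3 and at 0.30 and 0.51 around Prrx1. The Spearman values were 0.64 and 0.61 around Rnd3 and 0.00 and 0.19 around Prrx1. These describe bins of 1 window that share mappability and base composition, with few wild-type regions a bin. The 12 Rnd3 bins with the most regions in the replicates held 17 of the 22 wild-type regions, and the 10 such Prrx1 bins held 7 of the 12.

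Regions lay closer together in STAT5A-Stat5-/- cells than in wild type, and as deposited they lay closest in replicate 1. The gap from the end of a region to the start of the next had a median of 871 bp in replicate 1 and 6962 bp in replicate 2 around Prrx1, against 37912 bp in wild type. Around Rnd3 the medians were 1597 and 5095 bp, against 24141 bp in wild type. When regions up to 20 bp apart were joined, a step chosen after the gaps were seen, replicate 1 had medians of 5962 bp around Prrx1 and 4202 bp around Rnd3, near those of replicate 2, which kept its values. Wild type then had 32552 bp around Rnd3. Over the whole lists as deposited, without joining, the medians were 7971 and 10974 bp, and 92822 bp in wild type. Gaps under 2 kb made up 65 of 117 (55.6%) and 20 of 74 (27.0%) around Prrx1 in replicates 1 and 2, and none of 11 in wild type. Around Rnd3 they made up 84 of 160 (52.5%) and 32 of 114 (28.1%), and 4 of 21 (19.0%) in wild type. The whole lists had 33.5%, 18.9% and 5.91%. Shorter gaps follow from the density by which the windows were chosen.

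**Figure D2:**
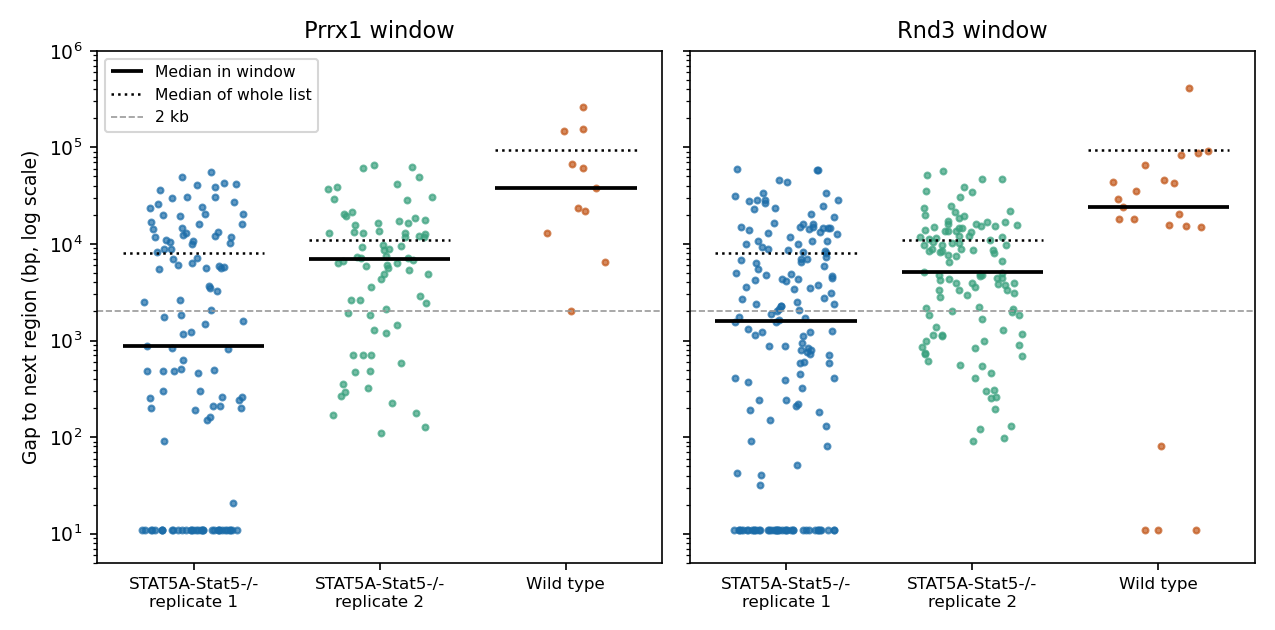
Gap in bp to the next region on a log scale (y axis) for each list (x axis), with a point for each gap, a solid line at the median of the window, a dotted line at that of the whole list and a dashed line at 2 kb. A row of points at 11 bp stands at the foot of replicate 1 in both windows, with 34 points around Prrx1 and 40 around Rnd3, and replicate 2 has none there.

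Many of the short gaps of replicate 1 were of a single size. Of its gaps, 34 around Prrx1 and 40 around Rnd3 were exactly 11 bp by the deposited positions, which is 29.1% and 25% of all gaps, and no other gap was 20 bp or less. Replicate 2 had none so short in either window, and wild type had 3 around Rnd3, also of 11 bp. Over the whole list replicate 1 had 18.0% of its gaps at 20 bp or less, against 0.216% in replicate 2 and 1.83% in wild type. After the same joining the Prrx1 window held 84 and 75 regions in replicates 1 and 2, against 12 in wild type. The Rnd3 window then held 121 and 115, against 19. The ratio of replicate 1 to replicate 2 was 1.12 around Prrx1 and 1.05 around Rnd3, where the deposited regions gave 1.57 and 1.4. Over the whole lists it was 0.819 after joining and 0.997 before, so the windows stayed above the whole lists in this ratio. The ratio of replicate 1 to wild type became 7.00 around Prrx1 and 6.37 around Rnd3, beside 4.5 over the whole lists.

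Joining regions under 2 kb apart gave stretches, which describe clusters rather than single regions. There were 53 stretches in replicate 1 and 55 in replicate 2 around Prrx1, against 12 in wild type, and 77 and 83 around Rnd3, against 18. Of the stretches of replicate 1, 33 around Prrx1 and 42 around Rnd3 had 2 or more regions, and these held 98 and 126 of its regions. A stretch of replicate 1 had 2.23 regions on average around Prrx1 and 2.09 around Rnd3, and one of replicate 2 had 1.36 and 1.39, where the whole lists gave 1.5 and 1.23. Of the stretches of 2 or more regions in replicate 1, replicate 2 overlapped 26 of 33 (78.8%, interval 61.1 to 91.0%) around Prrx1 and 34 of 42 (81.0%, 65.9 to 91.4%) around Rnd3. Of the single regions it overlapped 7 of 20 (35.0%, 15.4 to 59.2%) and 18 of 35 (51.4%, 34.0 to 68.6%). No share over the whole lists stands beside these, so they cannot be called particular to the windows. Longer stretches have more room for an overlap.

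**Figure D3:**
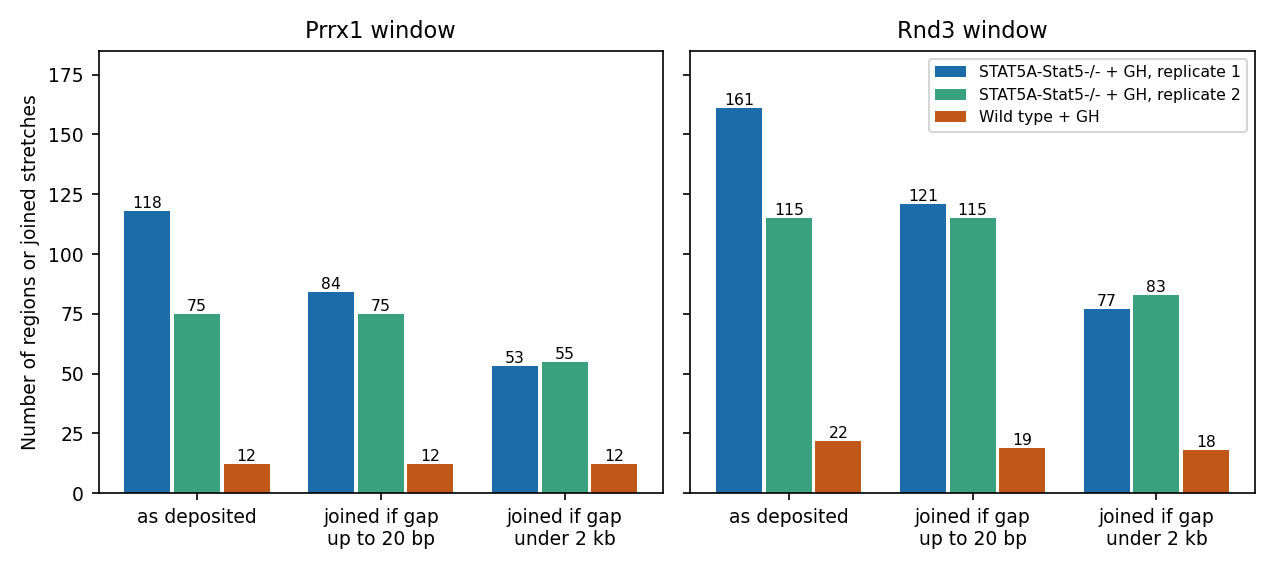
Number of STAT5 regions or joined stretches (y axis) as deposited, after joining across gaps of up to 20 bp and after joining across gaps under 2 kb (x axis), with a bar for each list. The 118 and 75 regions of replicates 1 and 2 around Prrx1 become 84 and 75 and then 53 and 55, and the 12 of wild type stay 12.

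The largest clusters were a few kb long. Around Rnd3 the 9 regions of replicate 1 in chr2:50221743-50229700 spanned 7958 bp, where replicate 2 had 4 regions and wild type had 1. Another 9 regions of replicate 1, in chr2:50996053-51002000, spanned 5948 bp and met no region of replicate 2 or of wild type. A cluster of 3 regions of replicate 2, chr2:51002362-51004860, began just past their end. The largest cluster of replicate 2, also of 9 regions, was in chr2:50295911-50306157 and spanned 10247 bp, with 9 regions in replicate 1 and 1 in wild type. A large cluster in 1 replicate was thus not always overlapped by the other. Both 9-region clusters of replicate 1 counted regions split by the very short gaps described above, and that of replicate 2 did not. Around Prrx1 the largest clusters of replicate 1 had 7 regions each. In chr1:165210553-165216250 replicate 2 had 3 regions and wild type had 1, and in chr1:165310783-165314660 replicate 2 had 3 and wild type had none. A wild-type region lay 292 bp from the nearest replicate 1 region there. It overlapped the cluster of 4 regions of replicate 2 at the same place, chr1:165310115-165314439.

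The longest gap in wild type was 261712 bp around Prrx1, at chr1:165310491-165572202, and it held 42 regions of replicate 1 and 28 of replicate 2. Around Rnd3 it was 409462 bp, at chr2:50409981-50819442, and held 35 and 25. In replicate 1 the longest gaps were 56162 bp, at chr1:165691151-165747312, and 60161 bp, at chr2:50026022-50086182. In replicate 2 they were 65731 bp, at chr1:165709900-165775630, and 56915 bp, at chr2:50421748-50478662. The longest stretch with no region in either replicate was 49862 bp around Prrx1, at chr1:165883131-165932992, and 56765 bp around Rnd3, at chr2:50421748-50478512. Neither held a wild-type region.

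Agreement between replicates, region by region, was near that of the whole lists in replicate 1 and above it in replicate 2. Around Prrx1, 60 of 118 regions of replicate 1 (50.8%, interval 41.5 to 60.2%) overlapped replicate 2 by at least 1 bp, and around Rnd3 94 of 161 did (58.4%, 50.4 to 66.1%), beside 51.9% of the whole list. Of the replicate 2 regions, 42 of 75 around Prrx1 (56.0%, 44.1 to 67.5%) and 69 of 115 around Rnd3 (60.0%, 50.4 to 69.0%) overlapped replicate 1, beside 43.1% of the whole list. Dense tiles in general had higher shares. In the 100 densest autosomal tiles of 1 Mb, the windows' own tiles not left out, 57.9% of replicate 1 regions and 48.9% of replicate 2 regions were shared. A replicate 2 region met 2 or more of replicate 1 in 17 of 75 cases around Prrx1 (22.7%) and in 22 of 115 around Rnd3 (19.1%), against 8.46% over the whole list. The reverse occurred once in each window. When the overlap had to cover 50% or more of each region, 29.7% of replicate 1 regions around Prrx1 and 28.6% around Rnd3 were shared, where the whole list gave 32.7%. Of replicate 2 regions 46.7% around Prrx1 and 40.0% around Rnd3 were then shared, where the whole list gave 32.6%.

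**Figure D4:**
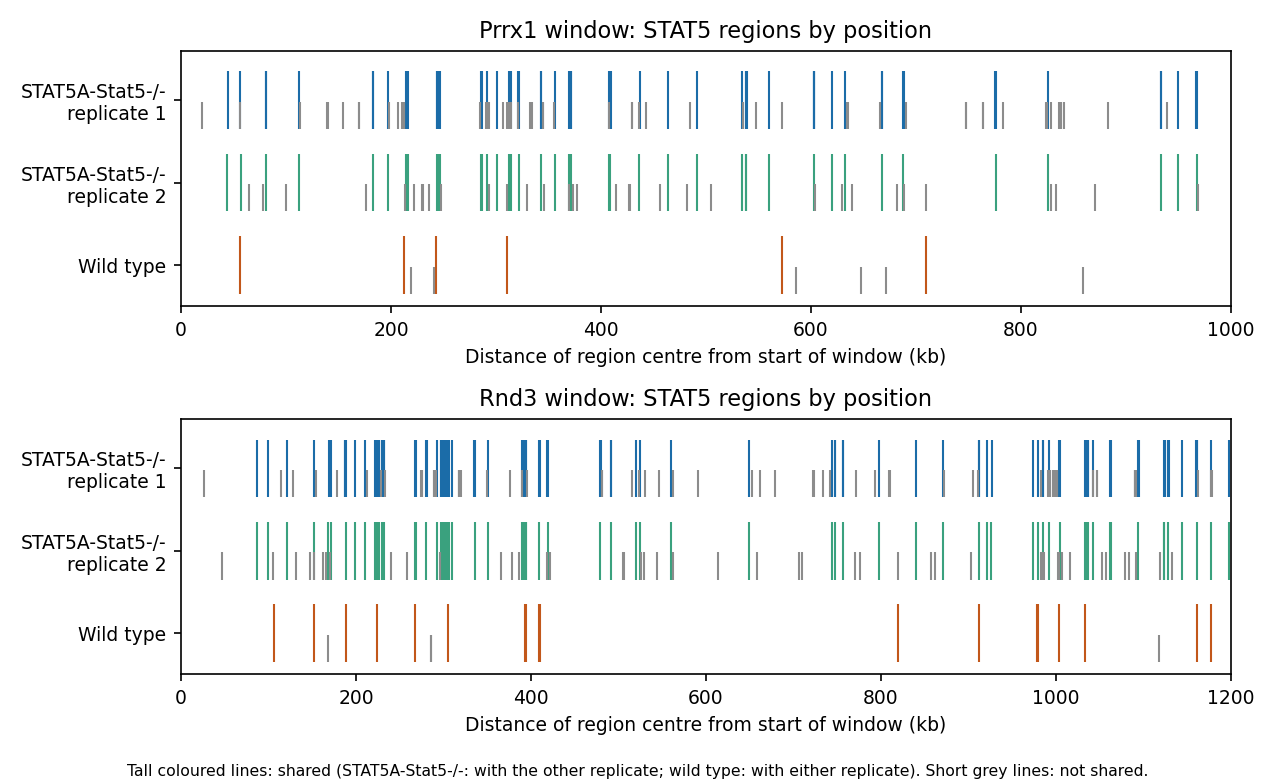
Position of each STAT5 region by distance of its centre from the window start in kb (x axis), with a row for each list. Tall coloured lines are regions shared with the other replicate or, in wild type, with either replicate, and short grey lines are regions not shared. Of the wild-type lines 6 of 12 are tall around Prrx1 and 18 of 22 around Rnd3.

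When all lists were merged, the Prrx1 window held 136 separate sites and the Rnd3 window 182, of which 130 and 178 were in STAT5A-Stat5-/- cells. Of the sites in STAT5A-Stat5-/- cells, 41 (31.5%, interval 23.7 to 40.3%) around Prrx1 and 68 (38.2%, 31.0 to 45.8%) around Rnd3 were in both replicates, beside 28.8% of all such sites. Both replicates but not wild type had 39 sites around Prrx1 and 55 around Rnd3. Replicate 1 alone had 54 and 66, replicate 2 alone had 31 and 42, and wild type alone had 6 and 4. As shares of the merged sites, both replicates but not wild type had 28.7% and 30.2%, beside 24.1% over the whole lists. The share of replicate 1 alone was 39.7% and 36.3%, beside 29.1%, and that of replicate 2 alone 22.8% and 23.1%, beside 35.3%. That of wild type alone was 4.41% and 2.20%, beside 7.15%. Only overlapping regions were merged, so replicate 1 regions split by gaps of 11 bp could count as separate sites, which adds to its share alone. After regions up to 20 bp apart were joined, sites in STAT5A-Stat5-/- cells numbered 116 around Prrx1 and 160 around Rnd3. The shares of each kind of site were not recounted after joining. Without replicate 1 the merged sites of the other 2 lists number 84 around Prrx1 and 117 around Rnd3. The widest site in both replicates and not in wild type was 1628 bp in each window. Around Prrx1 it was chr1:165320733-165322360, 10.2 kb from the nearest wild-type region, and around Rnd3 chr2:50418063-50419690, 8.08 kb from it. Each was made of 2 regions of replicate 1 and 1 of replicate 2.

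Sites also in wild type made up 6 of the 130 around Prrx1 (4.62%, interval 1.71 to 9.78%) and 15 of the 178 around Rnd3 (8.43%, 4.79 to 13.5%), beside 4.62% of all sites of STAT5A-Stat5-/- cells. Without replicate 1 the Rnd3 share was 13.3%, and without replicate 2 it was 8.28%. Around Rnd3 wild type was found at 13 of the 68 sites in both replicates (19.1%, 10.6 to 30.5%) and at 2 of the 110 sites in a single replicate (1.82%, 0.221 to 6.41%). Around Prrx1 the numbers were 2 of 41 (4.88%, 0.596 to 16.5%) and 4 of 89 (4.49%, 1.24 to 11.1%). Over the whole lists they were 9.84% and 2.51%. The shares of both kinds of site lie further apart around Rnd3 than around Prrx1, where they are close with wide intervals. A site in both replicates joins 2 or more regions, so it has more room to meet a wild-type region. Wild-type regions also took part in the merge and could bridge regions into a site. The contrast was not tested.

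Seen from wild type, most regions around Rnd3 were also called in STAT5A-Stat5-/- cells. Of the 22 wild-type regions there, 18 (81.8%, interval 59.7 to 94.8%) overlapped at least 1 replicate and 15 (68.2%, 45.1 to 86.1%) overlapped both. Around Prrx1, 6 of 12 (50%, 21.1 to 78.9%) overlapped at least 1 and 1 (8.33%, 0.211 to 38.5%) overlapped both. The Prrx1 share was 25% with replicate 2 alone and 33.3% with replicate 1 alone, and the Rnd3 share was 81.8% and 68.2%. The whole wild-type list gave 38.9% and 23.3%, and the 100 densest tiles gave 55.3% and 36.3%. The Rnd3 intervals lie above these tile values and the Prrx1 intervals include them. Of the 63 such tiles with at least 10 wild-type regions, 2 reached the Rnd3 share of 81.8%. The windows' own tiles were not left out of the 100 or the 63, so the Rnd3 window was partly compared with itself. The Rnd3 share depended on the overlap rule. It was 31.8% when the overlap had to cover 50% or more of each region, beside 25.4% of the whole list, and 59.1% for centres within 200 bp, beside 33.5%, while that of Prrx1 was 50% under both rules.

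**Figure D5:**
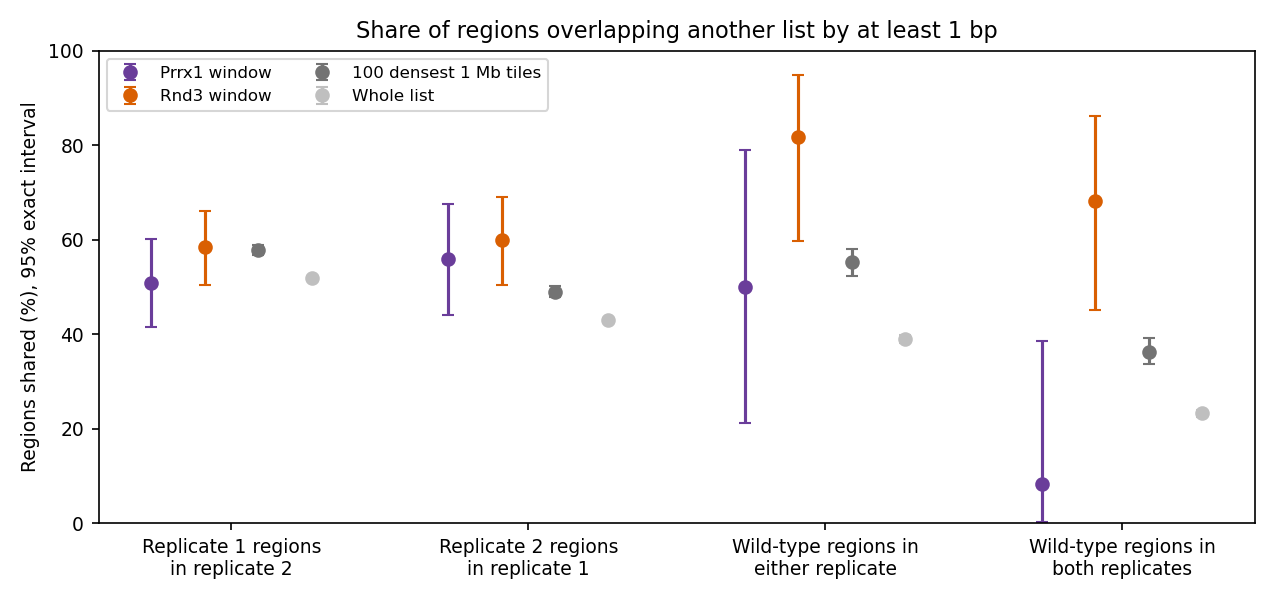
Share of regions in percent (y axis) that overlapped another list by at least 1 bp, for 4 pairings of lists (x axis), with points for the Prrx1 window, the Rnd3 window, the 100 densest 1 Mb tiles and the whole list, and bars for exact binomial intervals at 95%. The Rnd3 points for wild-type regions, 81.8% and 68.2%, lie above those of the dense tiles, 55.3% and 36.3%, and the Prrx1 points, 50% and 8.33%, lie below them with bars that include them. The windows' own tiles were not left out of the dense tiles, and the differences were not tested.

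The Prrx1 window had 2 sites with regions of all 3 lists. At chr1:165055683-165057014 the widest regions were 339 bp in replicate 1 and 775 bp in replicate 2, against 289 bp in wild type, where the wild-type region touched replicate 1 only and the site was bridged by it. At chr1:165243063-165244270 the widths were 678 and 1057 bp, against 388 bp, and the wild-type region overlapped both replicates. That site lay in a cluster of 5 regions of replicate 1, chr1:165243153-165246410, beside a cluster of 4 regions of replicate 2, chr1:165243213-165247412. Replicate 1 alone shared with wild type the sites chr1:165211553-165212251 and chr1:165572203-165572691. Replicate 2 alone shared chr1:165310033-165310555 and chr1:165709388-165709951. The 6 wild-type regions found in neither replicate lay 2132 to 12704 bp from the nearest region of STAT5A-Stat5-/- cells.

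The Rnd3 window had 13 sites with regions of all lists. Of these, 7 began 151.7 to 409.1 kb from the window start and 6 began 911.3 to 1177.1 kb from it. The widest, chr2:51002915-51004970, was 2056 bp, with widest regions of 608 bp in replicate 1 and 1136 bp in replicate 2, against 318 bp in wild type. Its wild-type region overlapped 2 regions of replicate 2 and lay 252 bp from replicate 1. The next were chr2:50187203-50188650, with widths of 628 and 1144 bp against 299 bp, and chr2:50223543-50224960, with 839 and 1216 bp against 488 bp. The wild-type regions were narrower than the widest of either replicate at these 3 sites and at 8 of the 13 in all, and they were the widest at 4. The remaining sites among the 10 widest, in falling order of width, were chr2:50911303-50912621, chr2:51160603-51161690, chr2:50267143-50268207, chr2:50978643-50979700, chr2:50409147-50410116, chr2:51177100-51178006 and chr2:50393363-50394161. At chr2:51177100-51178006, which is 1 of these 4, the wild-type region had 586 bp, against 459 bp in replicate 1 and 564 bp in replicate 2. At chr2:50978643-50979700, chr2:50409147-50410116 and chr2:50393363-50394161 wild type had 2 regions each. The 4 wild-type regions found in neither replicate lay 570 to 2491 bp from the nearest region of STAT5A-Stat5-/- cells.

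Regions shared by the replicates were wider than the others in both windows. In replicate 1 the median width was 409 bp for the 60 shared and 323.5 bp for the 58 other regions around Prrx1, and 473.5 bp for 94 and 358 bp for 67 around Rnd3. In replicate 2 it was 454 bp for 42 and 384 bp for 33 around Prrx1, and 478 bp for 69 and 327.5 bp for 46 around Rnd3. The whole lists had the same order, with 458 and 348 bp in replicate 1 and 468 and 329 bp in replicate 2. A wider region has a greater chance of an overlap, so width and sharing are not independent. Wild-type regions around Prrx1 had a median of 378 bp for the 6 shared and 433 bp for the 6 others, with ranges of 209 to 458 and 278 to 557 bp that overlap. Around Rnd3 the medians were 368.5 bp for 18 and 343 bp for 4, with ranges of 188 to 608 and 199 to 538 bp.

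Summits, which the authors' lists give for wild type and replicate 1 only, lay close together where regions overlapped. Around Prrx1 the 4 wild-type summits lay 20 to 95 bp, with a median of 55 bp, from the nearest summit of an overlapping replicate 1 region. Around Rnd3 the 15 distances ran from 10 to 425 bp with a median of 85 bp, and 8 were within 100 bp. The median over the whole list was 75 bp, and 63.1% were within 100 bp. Overlap itself keeps these distances short.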

How the data were processed

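The authors deposited lists of regions as genomic positions on build mm9 (start, end and, for wild type and replicate 1, a summit), with no counts or scores. Regions of replicate 2 are named MACS_peak, so MACS called them, per the file headers and names. For the other lists the caller, and for all lists the aligner, control and thresholds, are settings not given in the sources used here. Labels tie the replicate 2 list to 2 STAT5 libraries, without and with GH. It was read as the GH-treated one from its name, a limit on each value of replicate 2.

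Members were found by the centre of a region, and positions are printed counted from 1. Shared means an overlap of at least 1 bp. Tiles and bins start at the first base of a chromosome or window, on the 19 autosomes. Depth is unknown. Overlap counts were checked against bedtools 2.31.1 and on planted data. Sites named were those in all lists (up to 10 a window, widest first), the widest in both replicates but not wild type, the densest bins and the longest gaps, and other clusters and sites were picked after their values were seen. Members, lists and rules were chosen with earlier results of these data known. Intervals came from scipy 1.17.1, tables from pandas 2.3.3 and numpy 2.4.6, and figures from matplotlib 3.10.9, under Python 3.11.15.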

Additional observations from a re-analysis of the deposited data

How the results depend on the processing

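Of 84 alternative values of 24 results, 49 stayed within the interval of the reported share, within 1.5 times a number of regions or sites, or at the reported gap, and 35 moved. None has a test. Leaving out each replicate in turn gave 84 to 124 merged sites around Prrx1, against 136, and 117 to 164 around Rnd3, against 182, so leaving out replicate 1 moved both by over 1.5 times. The share of wild-type regions found in the remaining replicate was then 25 to 33.3% around Prrx1 and 68.2 to 81.8% around Rnd3. Sites also in wild type then made up 3.45 to 4% around Prrx1 and 8.28 to 13.3% around Rnd3, the highest without replicate 1. When the overlap had to cover 50% or more of each region, replicate 1 regions in replicate 2 made up 29.7% around Prrx1 and 28.6% around Rnd3. Around Rnd3, replicate 2 regions in replicate 1 made up 40.0%, wild-type regions in either replicate 31.8%, and sites also in wild type 3.87%. For centres within 200 bp, replicate 1 regions in replicate 2 made up 33.9% and 37.9%, and wild-type regions around Rnd3 59.1%. Keeping the regions at or above the median width of each list left 50, 43 and 6 regions of replicate 1, replicate 2 and wild type around Prrx1 and 85, 64 and 10 around Rnd3, fewer by construction. Median gaps then became 10772, 12485 and 61851 bp around Prrx1 and 4852, 11070 and 56342 bp around Rnd3. From centre to centre they were 1346, 7347 and 38286 bp and 2075, 5539 and 24414 bp, longer by construction. Joining regions up to 20 bp apart, chosen after seeing the data, gave 5962 bp in replicate 1 around Prrx1, 4202 bp in replicate 1 around Rnd3 and 32552 bp in wild type around Rnd3. The Pearson correlation of the replicates was 0.77 and 0.79 over bins of 25 kb and 0.91 and 0.91 over bins of 100 kb, around Prrx1 and Rnd3. Apart from what follows by construction, the cause was not tested. No paired analysis was possible because replicate number 1 is the only number that both groups have and no result comes from a test. The doubt over which library the replicate 2 list came from touches each value of it. Unknown depth and a single wild-type library limit every comparison of numbers of regions.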

Other observations

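Numbers of regions well above the autosomal mean went on below the Prrx1 window and above the Rnd3 window in STAT5A-Stat5-/- cells, and were near that mean on the other sides. In the 200 kb below the Prrx1 window there were 11 regions in replicate 1 and 12 in replicate 2 of STAT5A-Stat5-/- cells, against 1 in wild type, and in the 200 kb above it 7 and 6, against 1. Around Rnd3 the 200 kb below held 8 and 7, against 5, and the 200 kb above held 21 and 14, against 1. The last 200 kb inside the Rnd3 window held 37 and 26, against 5. Averaged over the autosomes, that length had 5.66 regions of replicate 1, 5.68 of replicate 2 and 1.06 of wild type. The 5 wild-type regions below the Rnd3 window stood beside near-average numbers in the replicates, and the 21 and 14 above it beside a single wild-type region. In wild type 10 of 12 regions around Prrx1 and 21 of 22 around Rnd3 lay on the 10 bp grid. Both off-grid Prrx1 regions were found in neither replicate, while the 1 off-grid Rnd3 region was shared. Over the whole wild-type list 21.4% of off-grid and 41.5% of on-grid regions were found in either replicate.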
